A study of Homo sapiens with 4 samples.

Results

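The aryl hydrocarbon receptor pathway was followed through 8 genes: AHR, which encodes the receptor; ARNT, its DNA-binding partner; AHRR and TIPARP, which restrain it; and the inducible enzyme genes CYP1A1, CYP1A2, CYP1B1 and ALDH3A1. They were picked by name for their place in the pathway, with earlier results of these data known. A gene was measured where a probe set of the array carries its symbol alone. This held for 7 of the 8, among 18417 genes measured in that way. The probe set for AHRR also carries the symbol of its neighbour PDCD6, so no AHRR value was taken from it and AHRR is not analysed here.

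The cells were MiaPaCa2, an established human pancreatic carcinoma line grown in serum-containing medium. The vehicle group was 2 cultures kept for 24 h with vehicle alone, and the LY101-4B group was 2 cultures kept for 24 h with 50 µM LY101-4B, a compound the series calls an E2F inhibitor. The protocol entry of the 4 samples differs from their titles, agent labels and design text, naming LY101-4D with a dose of 25 µM; the titles were followed. The only comparison is therefore 1 compound at 1 dose and 1 time in 1 cell line, with 2 biological replicates a group according to the design text.

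As background, AHR is a ligand-activated transcription factor of the bHLH-PAS family. It waits in the cytosol with HSP90 and co-chaperones, moves to the nucleus when it binds planar aromatic compounds or tryptophan metabolites, pairs there with ARNT and binds DNA elements with the core GCGTG. CYP1A1, CYP1A2 and CYP1B1 encode P450 enzymes that oxidise such compounds, and CYP1A1 and TIPARP are widely read as reporters of an active receptor.

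CYP1B1 rose with LY101-4B and the other 6 measured genes did not pass the test. CYP1B1 expression was 2.25-fold higher (95% interval 1.74 to 2.92-fold, n = 2 arrays a group), whereas CYP1A1, the classical reporter of the pathway, differed by 1.03-fold (0.847 to 1.26). Thus 1 of 7 genes was called higher and 0 lower, against 9.10% of all 21214 tested probe sets called higher and 10.5% called lower at a limma adjusted p under 0.05. The median log2 difference of the 7 genes was 0.15, and that of all tested probe sets was 0.0053. The groups did not overlap for 4 of the 7 (ARNT, TIPARP, CYP1B1 and ALDH3A1, each higher with LY101-4B), beside 58.0% of tested probe sets without overlap in either direction and 28.5% without overlap and higher.

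**Figure D1:**
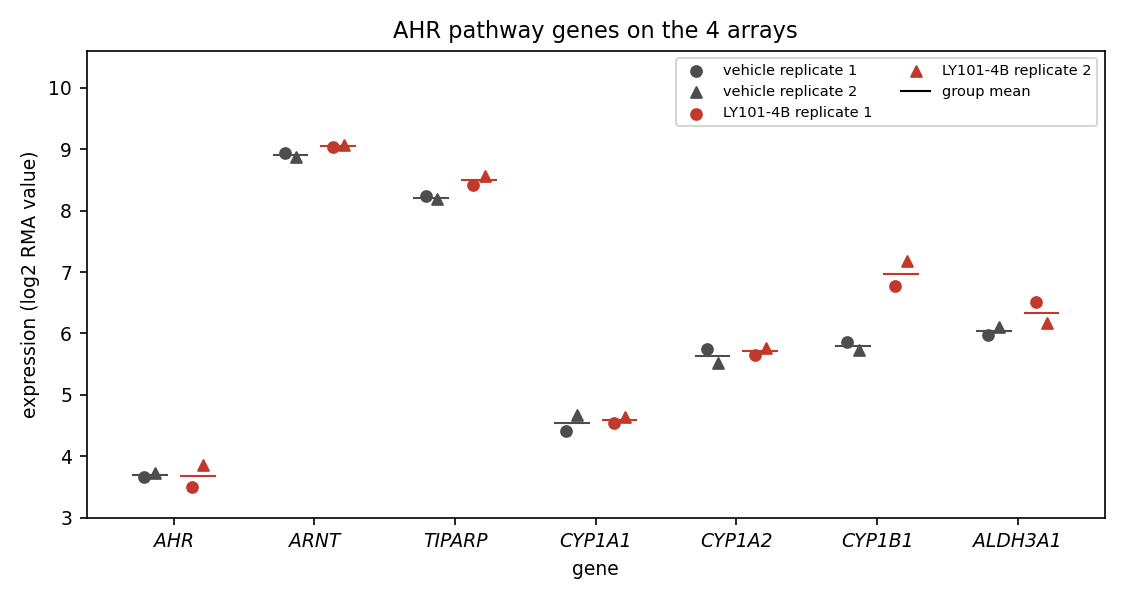
Expression (log2 RMA value, vertical axis) of the 7 measured genes on each array; circles and triangles are replicates 1 and 2, grey is vehicle, red is LY101-4B, and lines are group means. Both LY101-4B values of CYP1B1 (6.77 and 7.18) lie above both vehicle values (5.86 and 5.74), while the groups overlap for AHR, CYP1A1 and CYP1A2; heights of different genes are not comparable.

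To show the core motif in sequence, the stretches of 250 bases before the start sites of CYP1A1 and TIPARP are printed. They come from RefSeq (build GRCh38.p14), 5′ to 3′ on the gene's strand. These are the inducible genes widely used as reporters, and both hold the core GCGTG (capitals; CACGC where it is read on the other strand). The CYP1A1 stretch is chr15:74725529-74725778 on the minus strand, and the TIPARP stretch, the first of its 3 start sites in the table, is chr3:156674340-156674589 on the plus strand.
CYP1A1: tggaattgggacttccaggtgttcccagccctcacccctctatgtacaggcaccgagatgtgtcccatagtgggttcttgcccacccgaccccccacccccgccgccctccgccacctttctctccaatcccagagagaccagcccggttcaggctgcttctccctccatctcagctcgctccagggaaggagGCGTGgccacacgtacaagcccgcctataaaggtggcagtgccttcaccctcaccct
TIPARP: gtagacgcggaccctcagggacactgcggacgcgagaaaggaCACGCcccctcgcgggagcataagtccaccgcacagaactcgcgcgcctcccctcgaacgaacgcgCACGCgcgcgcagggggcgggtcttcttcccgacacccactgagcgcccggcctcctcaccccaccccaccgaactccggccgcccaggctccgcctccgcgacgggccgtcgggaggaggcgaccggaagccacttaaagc

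In CYP1A1 the core begins 57 bases before the start. In TIPARP it occurs 2 times on the other strand, beginning 208 and 142 bases before the start; the windows of the other 2 TIPARP start sites, not printed, do not contain it. Windows were found for 6 of the 8 genes (AHR, ARNT, AHRR, TIPARP, CYP1A1 and CYP1A2), and none for CYP1B1 or ALDH3A1. Of these 6 genes, 3 (AHRR, TIPARP and CYP1A1) had the core in at least 1 window. Among all 35116 windows of this length 32.2% held the core, so its presence sets none of these genes apart. That share is per window and not per gene, and AHRR had 2 windows and TIPARP 3. The longer form TNGCGTG, which contains the core, was in 4.52% of all windows, in 1 of the AHRR windows, and in neither stretch printed above. A match is a stretch of letters and not a bound site, and no binding was measured in these cells.

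The receptor and its partner come first. The AHR probe set read 3.67 and 3.73 log2 units on the vehicle arrays and 3.50 and 3.86 on the LY101-4B arrays. The LY101-4B values lay on both sides of the vehicle values, so the groups overlapped. The difference was -0.02 ± 0.13 log2 units (SE; limma adjusted p 0.949), with a 95% interval of 0.785 to 1.24-fold, and it changed sign when vehicle replicate 2 or LY101-4B replicate 1 was left out (0.01 and 0.16). No detection calls were used, so whether this dim signal was above background is not known, and a difference at such a level can be compressed. ARNT, the partner that AHR shares with hypoxia factors, read 8.93 and 8.88 with vehicle and 9.04 and 9.06 with LY101-4B. Both LY101-4B values were the higher ones, but the difference of 0.15 ± 0.09 log2 units (SE), or 1.11-fold, did not pass (limma adjusted p 0.308).

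TIPARP encodes a mono-ADP-ribosyltransferase that AHR induces and that acts back on the receptor. It read 8.23 and 8.19 with vehicle and 8.42 and 8.57 with LY101-4B, without overlap. The difference was 0.28 ± 0.09 log2 units (SE), or 1.22-fold (95% interval 1.04 to 1.43), and the limma adjusted p of 0.0959 missed the threshold. TIPARP passed in 2 other settings, at 0.0426 after cyclic loess and at 0.0327 when only the brighter 50% of probe sets were tested. With arrays centred on their medians its difference was 0.22 (adjusted p 0.206). Its absolute difference was larger than that of 69.0% of tested probe sets.

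Of the CYP1 enzyme genes, CYP1A1 and CYP1A2 were not called. CYP1A1 read 4.42 and 4.67 log2 units with vehicle and 4.54 and 4.64 with LY101-4B. Both LY101-4B values lay between the vehicle values. Its difference was 0.05 ± 0.12 log2 units (SE; limma adjusted p 0.832), and the sign turned with arrays centred on their medians (-0.02) and without vehicle replicate 1 (-0.08) or LY101-4B replicate 2 (-0.0030). CYP1A2, a mainly hepatic enzyme gene next to CYP1A1 on chromosome 15, read 5.75 and 5.52 with vehicle and 5.66 and 5.76 with LY101-4B. Again the groups overlapped, with a difference of 0.07 ± 0.11 log2 units (SE; limma adjusted p 0.734), or -0.05 without vehicle replicate 2. The upper ends of the 95% intervals were 1.26-fold for CYP1A1 and 1.27-fold for CYP1A2, on the compressed scale of dim RMA values.

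CYP1B1 encodes a mainly extrahepatic member of the family, which oxidises oestradiol as well as aromatic hydrocarbons. It read 5.86 and 5.74 with vehicle and 6.77 and 7.18 with LY101-4B. The lowest LY101-4B value stood above the highest vehicle value, and the LY101-4B arrays differed from each other more (by 0.41) than the vehicle arrays did (by 0.12). Group means were 5.80 ± 0.09 and 6.97 ± 0.29 log2 units (SD, n = 2 each), a difference of 1.17 ± 0.15 (SE; limma adjusted p 0.00547). This absolute difference was larger than that of 97.8% of tested probe sets. The vehicle values of CYP1B1 were near those of CYP1A2 (5.75 and 5.52) in number only, since heights of different genes are not comparable. No detection calls were used, so whether the vehicle signal of CYP1B1 was above background is not known. CYP1B1 passed in each of the 10 other settings that could be run for it, with differences from 0.97 to 1.38 log2 units and adjusted p from 0.0010 to 0.0308; it was too dim to be kept among the brighter 50% of probe sets.

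The change of CYP1B1 was set against that of CYP1A1 within each array. The log2 gap between the 2 probe sets was 1.44 and 1.07 on the vehicle arrays and 2.22 and 2.54 on the LY101-4B arrays. Both LY101-4B gaps were the wider ones, by 1.13 on average. An exact 2-sided permutation test gave p = 0.333, which is the smallest p that 2 arrays against 2 allow, so this contrast cannot pass on its own. The pair was chosen after CYP1B1 was seen to be the only gene called, and CYP1A1 is a dim probe set whose detection is not known and whose differences can be compressed, so the contrast is a description. The separate log2 differences had 95% intervals of 0.80 to 1.55 for CYP1B1 and -0.24 to 0.33 for CYP1A1.

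ALDH3A1 encodes an aldehyde dehydrogenase that belongs to the classical AHR gene battery. It read 5.97 and 6.10 with vehicle and 6.51 and 6.17 with LY101-4B. LY101-4B replicate 1 stood apart, and replicate 2 lay only just above the vehicle values. The difference of 0.30 ± 0.14 log2 units (SE), or 1.23-fold, did not pass (limma adjusted p 0.193). Without LY101-4B replicate 2 it was 0.47 and passed (0.0476), and without LY101-4B replicate 1 it was 0.14 (0.460). Each of these fits leaves 1 LY101-4B array, which is assumed to vary like the vehicle pair; the SE fell from 0.136 to 0.105.

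**Figure D2:**
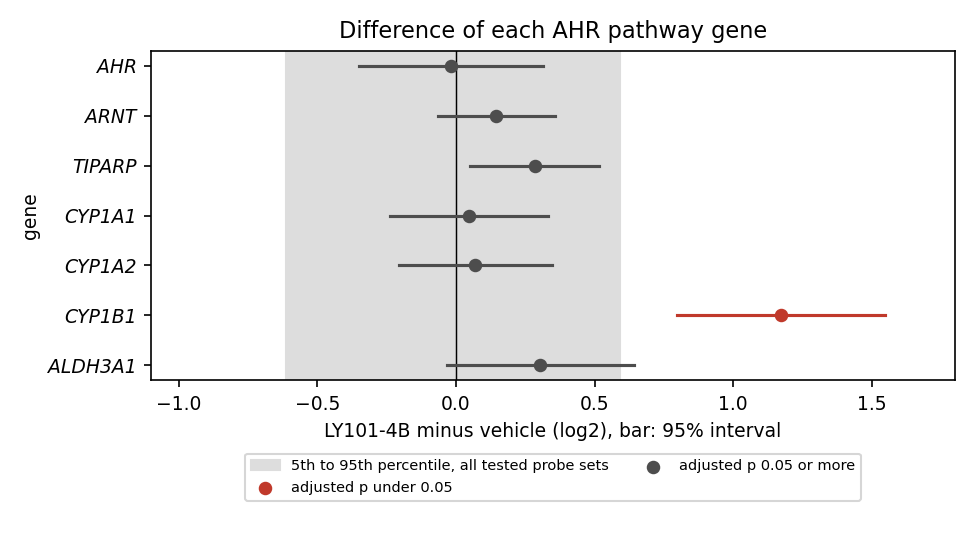
Difference between LY101-4B and vehicle (log2, horizontal axis) for each measured gene, as points with 95% intervals; red marks an adjusted p under 0.05, and the grey band spans the 5th to the 95th percentile of all tested probe sets (-0.61 to 0.59). CYP1B1 lies outside the band and the other 6 genes lie inside it.

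**Figure D3:**
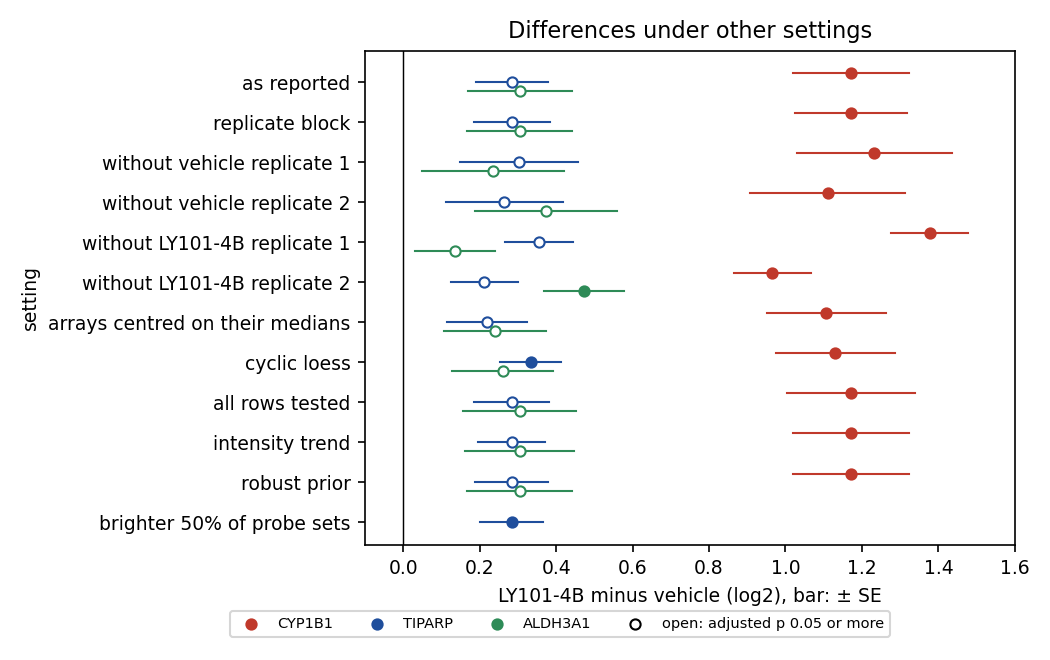
Log2 difference (horizontal axis, ± SE) of CYP1B1, TIPARP and ALDH3A1 as reported and under each other setting (vertical axis); filled points have an adjusted p under 0.05. CYP1B1 stays filled between 0.97 and 1.38, TIPARP is filled under 2 settings and ALDH3A1 under 1.

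Of all genes measured, the 3 whose pattern over the 4 arrays lay nearest to CYP1B1, after each gene's vehicle mean was subtracted, were LTBP1, which encodes a carrier of latent TGF-beta, APH1B, a gamma-secretase subunit gene, and LZTFL1, a gene of ciliary transport. The Euclidean distances were 0.0820, 0.103 and 0.107 log2 units among 18416 genes compared. Each was called higher, LTBP1 by 2.29-fold, APH1B by 2.32-fold and LZTFL1 by 2.26-fold, and in each LY101-4B replicate 2 read above replicate 1, as for CYP1B1. With only 2 groups such likeness mostly restates a rise of like size. The genes were picked by distance over these same arrays, so their rise and shared replicate order follow largely from that choice.

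Genes around the receptor were taken in 8 lists covering 121 genes, of which 109 were measured. The lists, too, were chosen with earlier results of these data known. In these, 18 genes rose, 18 fell and 73 did not pass. Over all tested probe sets 19.6% were called in either direction. That share is per probe set and includes dim ones, whereas each list gene is read from its brightest probe set. With only the brighter 50% of probe sets tested, more were called (2151 higher and 2816 lower, beside 1930 and 2236). The called share was thus well above 19.6% in that setting. Of the list genes kept in it, 17 were called higher and 18 lower. The 19.6% is therefore a low mark for genes read from bright probe sets, and the list counts cannot be read as an excess over it. Whether the lists differ from probe sets of like brightness was not tested. Median differences per list below stand beside 0.0053 for all tested probe sets.

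The first list held the cytosolic complex that keeps AHR ready for ligand and the factors of its transport and turnover. Of its 10 measured genes 5 fell and 0 rose, with a median log2 difference of -0.34. PTGES3, which encodes the HSP90 co-chaperone p23 that stabilises ligand-free AHR, fell 1.49-fold, from 11.6 and 11.6 log2 units with vehicle to 11.0 and 11.0 with LY101-4B (limma adjusted p 0.00782). XPO1, the nuclear export receptor gene, fell 1.44-fold, the HSP90 alpha gene HSP90AA1 1.39-fold and the WD-repeat gene TBL3 1.33-fold, with limma adjusted p of 0.0157, 0.0187 and 0.0396. The HSP90 beta gene HSP90AB1, named after its values were seen, fell 1.30-fold (limma adjusted p 0.0315). PTGES3 was no longer called when a vehicle array, whichever of the pair, was dropped (adjusted p 0.0647 and 0.0716), although its log2 difference stayed at -0.59 and -0.56, beside -0.57 with all arrays, and its SE rose from 0.084 to 0.146. XPO1, HSP90AA1, TBL3 and HSP90AB1 lost their calls when a vehicle array or LY101-4B replicate 1 was dropped, at adjusted p between 0.0535 and 0.215 and log2 differences between -0.59 and -0.32, and with all rows of the table tested. HSP90AB1 also missed it after cyclic loess (0.0589). That setting gave smaller log2 falls for HSP90AB1 (-0.28 beside -0.37), PTGES3 (-0.49 beside -0.57), XPO1 (-0.44 beside -0.53) and HSP90AA1 (-0.38 beside -0.48). For TBL3 it gave -0.43 beside -0.42. The vehicle means of PTGES3, XPO1, HSP90AA1 and HSP90AB1 were bright, from 11.6 to 13.0 log2 units, and that of TBL3 was 7.38. Whether these genes fell more than probe sets of like brightness was not tested. Here and below, a fit to 3 arrays takes its spread from fewer arrays, and the adjusted p can rise with no smaller difference.

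Among the 13 other bHLH-PAS genes, 1 rose, 0 fell and 12 did not pass (median 0.04). The one that rose was BMAL1, the partner of CLOCK in the circadian oscillator, from 6.92 and 7.07 log2 units with vehicle to 8.04 and 8.00 with LY101-4B, or 2.04-fold (limma adjusted p 0.00205). Replicates differed far less than the groups. ARNT2, the neural relative of ARNT, named after its values were seen, differed by -0.22 ± 0.14 log2 units (SE; limma adjusted p 0.346).

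Coregulators and nuclear partners moved in both directions, with 3 of 14 higher, 3 lower and a median of 0.0066. NRIP1, the corepressor gene also called RIP140, fell 2.83-fold, from 6.62 and 6.82 log2 units to 5.00 and 5.44. NCOA7, a coactivator gene also known for oxidation resistance, rose 2.64-fold, and KLF6, a zinc finger factor that can pair with AHR at other DNA elements, rose 1.77-fold. SMARCA4, which encodes the chromatin remodelling ATPase BRG1, fell 1.76-fold. The limma adjusted p of these 4 genes lay between 0.0013 and 0.0048.

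Other genes that AHR can induce in some tissues gave 3 higher and 1 lower of 16 measured, with a median of 0.09. SLC7A5, which encodes the large neutral amino acid transporter LAT1 and is also a target of the amino acid response factor ATF4, rose 2.41-fold, from 9.97 and 9.97 log2 units with vehicle to 11.2 and 11.3 with LY101-4B (limma adjusted p 0.00097). NFE2L2, the gene of the oxidative stress factor NRF2, rose 1.36-fold (limma adjusted p 0.0265). NQO1, a quinone reductase gene that both AHR and NRF2 can induce, rose 1.29-fold (limma adjusted p 0.0328). FLG, the epidermal filaggrin gene, fell 1.31-fold (limma adjusted p 0.0484). SLC7A5 kept its call in every setting run. NQO1 missed the threshold without any one of the 4 arrays (adjusted p 0.0582 to 0.232, log2 differences 0.35 to 0.39 beside 0.37) and with median centring (0.0674), NFE2L2 without either vehicle array or LY101-4B replicate 2 (0.0557 to 0.158, log2 differences 0.37 to 0.45 beside 0.44), and FLG without either vehicle array or LY101-4B replicate 1 (0.117 to 0.270, log2 differences -0.43 to -0.30 beside -0.39), with the replicate block (0.0585), with an intensity trend (0.0636) and with a robust prior (0.0509); all 3 missed it with all rows tested.

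Tryptophan breakdown supplies kynurenine-type AHR ligands, and its list showed 2 of 13 genes higher and 3 lower (median -0.07). TDO2, the gene of the first enzyme of the route, read 3.59 and 3.48 log2 units with vehicle and 4.49 and 4.27 with LY101-4B, a 1.79-fold rise (limma adjusted p 0.00569) at a level where detection is not known. KYAT3, a kynurenine aminotransferase gene, rose 1.38-fold, while its relative KYAT1 fell 1.41-fold and the amine oxidase gene MAOA fell 1.43-fold (limma adjusted p 0.0351, 0.0194 and 0.0136). AFMID, the kynurenine formamidase gene named after its values were seen, fell 1.38-fold (limma adjusted p 0.0180). Dropping a vehicle array, whichever of the pair, ended the calls of KYAT1, KYAT3, MAOA and AFMID (adjusted p 0.0767 to 0.200). Those of KYAT1, KYAT3 and AFMID were also lost with all rows tested, KYAT1 without LY101-4B replicate 1 (0.0538), and KYAT3 without LY101-4B replicate 2 (0.0700) and with median centring (0.0624).

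Receptors and enzymes of other xenobiotic routes gave 2 higher and 1 lower of 14 (median -0.06). CYB5A, the cytochrome b5 gene, fell 2.39-fold, from 9.67 and 9.74 log2 units with vehicle to 8.33 and 8.57 with LY101-4B (limma adjusted p 0.00184). POR, the reductase that passes electrons to CYP1B1 and the other microsomal P450 enzymes, rose 1.75-fold, from 9.04 and 9.09 to 9.73 and 10.0 (limma adjusted p 0.00789). The fatty acid receptor gene PPARA rose 1.55-fold (limma adjusted p 0.0100), a call lost without vehicle replicate 2 (0.0777).

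In the remaining aldehyde dehydrogenase family, 1 of 15 genes rose and 4 fell (median -0.02). ALDH6A1, a mitochondrial enzyme gene of valine breakdown, rose 1.97-fold; a dimmer probe set of it differed by 1.42-fold and was not called (limma adjusted p 0.112). ALDH1B1 fell 1.88-fold, the retinaldehyde enzyme gene ALDH1A1 1.47-fold and the succinic semialdehyde enzyme gene ALDH5A1 1.46-fold, with limma adjusted p from 0.0020 to 0.0180. ALDH3A2, a close relative of ALDH3A1, was named after its values were seen and differed by 0.13 ± 0.08 log2 units (SE; limma adjusted p 0.357). The ALDH1A1 call was lost without either vehicle array (0.0797 and 0.0868), and that of ALDH5A1 without vehicle replicate 2 (0.134), without LY101-4B replicate 1 (0.0645) and with all rows tested (0.0618).

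The PARP family, to which TIPARP belongs, had 6 of 15 genes higher and 1 lower, with a median of 0.06. PARP1, the DNA damage sensor gene, fell 1.99-fold, from 10.3 and 10.3 log2 units with vehicle to 9.20 and 9.47 with LY101-4B. PARP12, an interferon-inducible mono-ADP-ribosyltransferase gene like TIPARP in domain make-up, rose 1.92-fold, PARP6 1.59-fold and the tankyrase gene TNKS 1.55-fold. Limma adjusted p of these 4 ran from 0.0038 to 0.0099. Without vehicle replicate 1 PARP6 (0.0608) and TNKS (0.0682) missed the threshold, and TNKS also did without vehicle replicate 2 (0.0611).

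**Figure D4:**
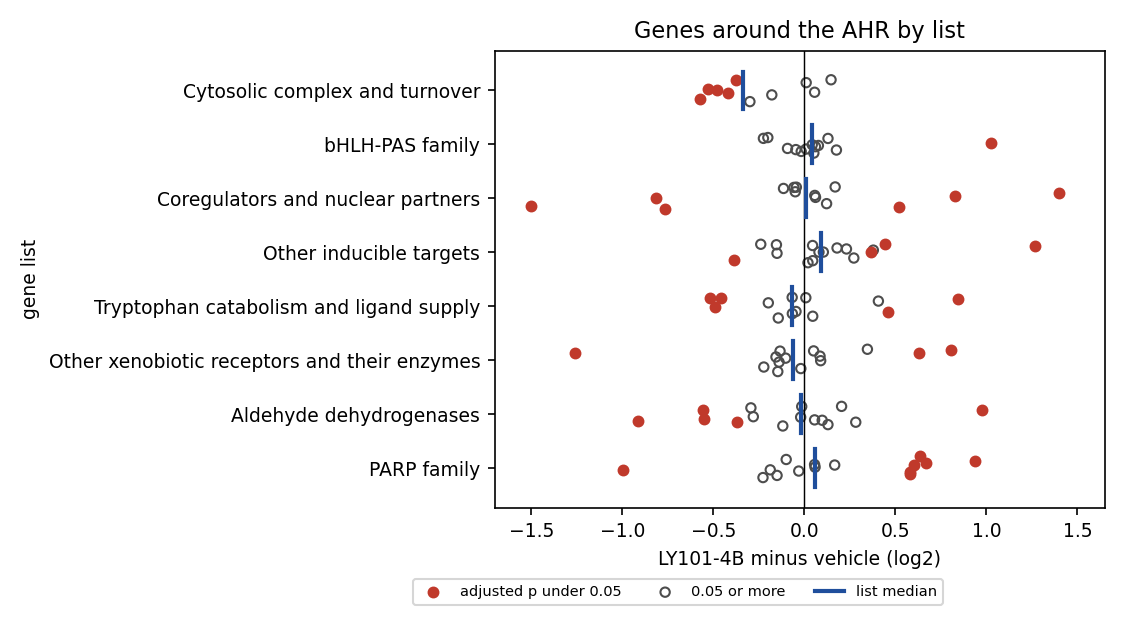
Log2 difference between LY101-4B and vehicle (horizontal axis) of every measured gene in the 8 lists (vertical axis); filled red points have an adjusted p under 0.05, open points do not, and blue bars are list medians. The cytosolic complex list has a median of -0.34, while the other medians lie between -0.07 and 0.09.

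Each array held 33297 values with medians between 5.88 and 5.97 log2 units. Across tested probe sets the vehicle arrays correlated at r = 0.997, the LY101-4B arrays at 0.994, and arrays of different groups at 0.978 to 0.981. Of the markers checked for the line, KRT8, KRT18, KRT19 and VIM read 9.06 to 13.0 log2 units on every array, while the epithelial genes EPCAM and CDH1 read 3.77 to 4.63, ZEB1 7.75 to 7.88 and CDKN2A 5.73 to 6.11; KRT8 fell 1.78-fold, KRT18 fell 1.48-fold and the other 6 did not pass. Among 6 measured markers of other cell types, those of leukocytes, endothelium, hepatocytes and acinar cells read 3.36 to 4.90; the fibroblast collagen gene COL1A2 read 9.87 to 10.4 and rose 1.39-fold, and COL1A1 read 6.88 to 7.02. Their part in the results was not tested. In cultures read in bulk, a change per cell and a change in the mix of cells cannot be told apart.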

How the data were processed

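Expression was measured on 1-colour GeneChip Human Gene 1.0 ST arrays. The deposited values are log2 expression per probe set, made by the authors with RMA (background correction, quantile normalisation and probe set summary), per the submitters' processing notes; its version, the probe set definitions and any filters were not given in the sources used here. Such values compress differences of dim probe sets, and changes are relative to the bulk of the array. The labels' protocols name a FlashTag kit, usually a small RNA kit, for labelling.

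Of 33297 rows, 19460 carried 1 gene symbol in the platform annotation, 1754 several and 12083 none; 0 symbols needed updating against RefSeq GRCh38.p14, and 0 columns were left unmapped. The 21214 rows with a symbol were fitted with limma 3.58.1 in R 4.3.3 (lmFit, eBayes, treatment as the only term; 2-sided p-values, Benjamini-Hochberg over all tested rows, threshold 0.05). Residual degrees of freedom were 2, and the variance prior added 3.75. The brightest probe set stood for a gene; each of the 7 measured genes of the pathway had only 1. The fit was tested on simulated data. From each list up to 4 called genes with the largest change were named, and genes outside this rule are marked. The members and lists were chosen with earlier results of these data known. The number of arrays limits the precision.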

Additional observations from a re-analysis of the deposited data

How the results depend on the processing

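CYP1B1 stayed higher and past the threshold in all 10 alternatives that could be run for it, and no measured gene of the pathway was called lower in any. Leaving out 1 array gave 1 to 2 pathway genes called higher. Cyclic loess gave 2 (CYP1B1 and TIPARP). Testing the brighter 50% gave 1, which was TIPARP, since CYP1B1 was not among the rows kept. Leaving out 1 array gave 755 to 1899 probe sets called higher and 811 to 2467 lower, and 9 to 17 and 5 to 17 genes of the 8 lists. With all 33297 rows tested the counts were 1162 and 1271 probe sets and 11 and 8 list genes. Signs turned for AHR (-0.19 to 0.16 with 1 array left out), CYP1A1 (-0.080 to 0.17 with 1 array left out, -0.018 with median centring) and CYP1A2 (-0.045 to 0.18 with 1 array left out); the cause was not tested. Of the 28 list genes named by rule, 13 kept their call under every alternative run and 0 changed sign. The samples share replicate numbers that the labels do not tie to a common batch, and same-numbered deviations correlated at 0.12; with the replicate block 2024 probe sets were higher and 2312 lower, 1 pathway gene was higher and 0 lower, and 18 list genes were higher and 17 lower. No dimmer probe set existed for a pathway gene, so that alternative was not run. Without detection calls, signal over background is not known for dim probe sets such as those of AHR, CYP1A1 and TDO2, nor for CYP1B1 with vehicle.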
